A study of Homo sapiens with 4 samples.

Results

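The genes described here handle iron in the hepatocyte. The group lists 10 genes, and 7 of them (TF, TFRC, TFR2, HFE, FTL, HAMP and CP) have probe sets of their own, 27 of the 22215 probe sets on the array. Members were taken by the gene symbol in the platform's annotation table. FTH1 and IREB2 are named by no probe set in that table, and the only probe set that lists ACO1 also lists KANK1, so these 3 genes were not analysed here. RNA came from Huh-7, an established human hepatocellular carcinoma line grown in medium with 10% bovine serum. One group, of 2 arrays, is Huh-7 with transforming growth factor beta (TGF-beta), and the other, also of 2 arrays, is Huh-7 without it. Cells of both groups were harvested after 48 h. The sources used here give no dose. All 4 arrays are of this 1 line, and nothing in the labels tells whether a group's arrays came from different cultures, so the spread behind each p-value may be technical. The comparison asks how liver cancer cells respond in transcript levels to TGF-beta, a SMAD-activating cytokine.

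Iron travels in plasma bound to transferrin (TF), which hepatocytes secrete. Cells take it up through transferrin receptor 1 (TFRC), store it in ferritin (the FTH1 and FTL chains) and release it through the exporter ferroportin (SLC40A1), helped by ferroxidases such as ceruloplasmin (CP). Hepcidin (HAMP), a peptide hormone of the hepatocyte, closes ferroportin. Its gene is switched by BMP and SMAD signalling, to which HFE and transferrin receptor 2 (TFR2) contribute, and by interleukin-6 and STAT3. Inside cells the iron regulatory proteins, ACO1 and IREB2, bind iron-responsive elements in transcripts. At low iron they block translation of ferritin and protect the TFRC transcript from decay, so ferritin can change in amount without a change in its transcript.

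The promoter of HAMP is shown because HAMP had the largest difference of the members measured and the main control signals act there. The sequence covers the 250 bases before the start of the RefSeq gene, chr19:35282278-35282527 of GRCh38.p14, plus strand, 5′ to 3′. Capitals mark the BMP-responsive element core, GGCGCC, 105 to 100 bases before the start, and the STAT-binding site, TTCTTGGAA, 93 to 85 bases before it.
HAMP promoter: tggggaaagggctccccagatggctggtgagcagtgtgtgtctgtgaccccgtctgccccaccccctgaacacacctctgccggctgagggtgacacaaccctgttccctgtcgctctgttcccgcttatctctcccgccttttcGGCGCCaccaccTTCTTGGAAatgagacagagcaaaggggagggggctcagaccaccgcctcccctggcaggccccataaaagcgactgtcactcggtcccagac
Each motif was searched on both strands, and they do not overlap in HAMP. Of 35116 RefSeq promoters, 16.4% hold GGCGCC and 0.31% hold TTCTTGGAA in the same window. Among the 9 promoter entries of members in that table, which cover 7 of the 10 genes, 6 hold the first motif and 1 holds the second.

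The start of the FTL transcript is shown because its iron-responsive element is the switch described above. The stretch shown is the last 30 of the first 50 transcribed bases, so it need not hold the whole element. The 30 bases at chr19:48965329-48965358 of GRCh38.p14, plus strand, 5′ to 3′ and written as DNA, carry the loop of the element in capitals, at transcribed bases 39 to 44.
FTL iron-responsive element: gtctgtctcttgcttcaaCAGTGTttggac
The loop pattern CAGTGN, searched on the transcribed strand, occurs in the first 50 transcribed bases of 6.36% of the RefSeq entries and of 2 of the 9 entries of members. These matches describe letters only.

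After TGF-beta, none of the 7 measured iron handling genes changed at an adjusted p under 0.05. The test was limma across all 12165 genes, each represented by its brightest probe set, with Benjamini-Hochberg adjustment, and it called 1.22% of all genes. At an unadjusted p under 0.05, 1 of the 7 passed, HAMP on the lower side, against 18.0% of all genes and 8.6% on the lower side. The members' log2 fold changes lay between -0.37 and 0.24 with a median of 0.03, beside a median of -0.01 over all genes. The arrays of the groups did not overlap in 3 of the 7, HAMP, CP and TFR2, where 49.1% of all genes separated. In limma over all probe sets, 0 of the 27 member probe sets were called, against 0.855% of all probe sets, and 2 passed at an unadjusted p under 0.05, against 16.3%. For scale, the smallest log2 change among the genes called was 0.60 in size.

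**Figure D1:**
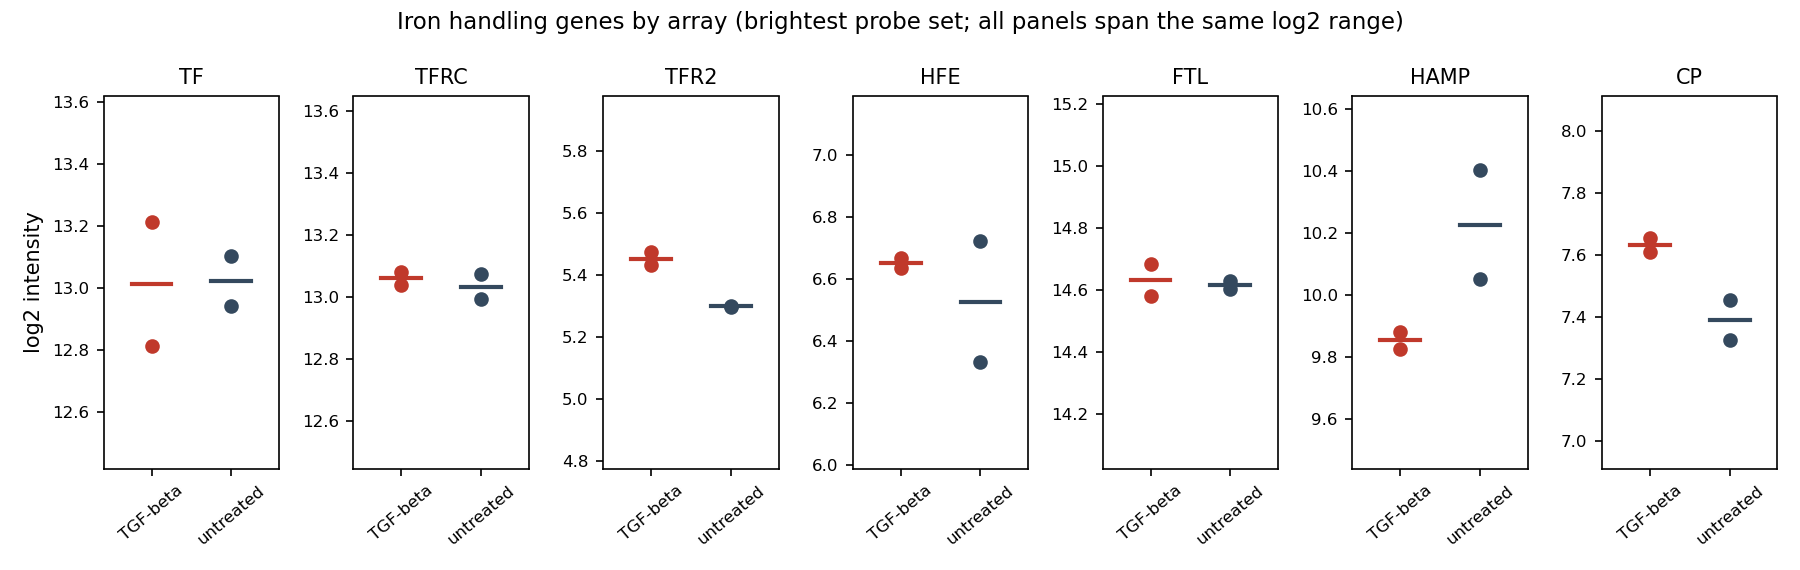
Log2 intensity of the 7 measured iron handling genes on each array, with TGF-beta in red and untreated cells in dark blue, points for arrays and lines for means of 2 arrays. The TGF-beta points lie below both untreated points for HAMP and above both for CP and TFR2, while the groups overlap for TF, TFRC, HFE and FTL.

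Hepcidin showed the largest difference of the members. HAMP, measured by 1 probe set, had intensities of 908 and 942 in TGF-beta cells, against 1353 and 1059 in untreated cells. Both TGF-beta arrays were lower than both untreated arrays, and the untreated arrays differed from each other by 0.35 on the log2 scale, close to the difference between the groups. The mean log2 intensity was 9.85 ± 0.04 after TGF-beta and 10.23 ± 0.25 in untreated cells (SD, n = 2 each). The log2 fold change was -0.37 ± 0.14 (SE), 0.772 times the untreated intensity with a 95% confidence interval of 0.617 to 0.966. Its unadjusted p was 0.0293 and its adjusted p in limma was 0.22. Without untreated array 1, the higher of the pair, the log2 fold change was -0.20 (adjusted p = 0.528), and without untreated array 2 it was -0.55 (adjusted p = 0.0549). The adjusted p over all alternatives ran from 0.0549 to 0.581.

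**Figure D2:**
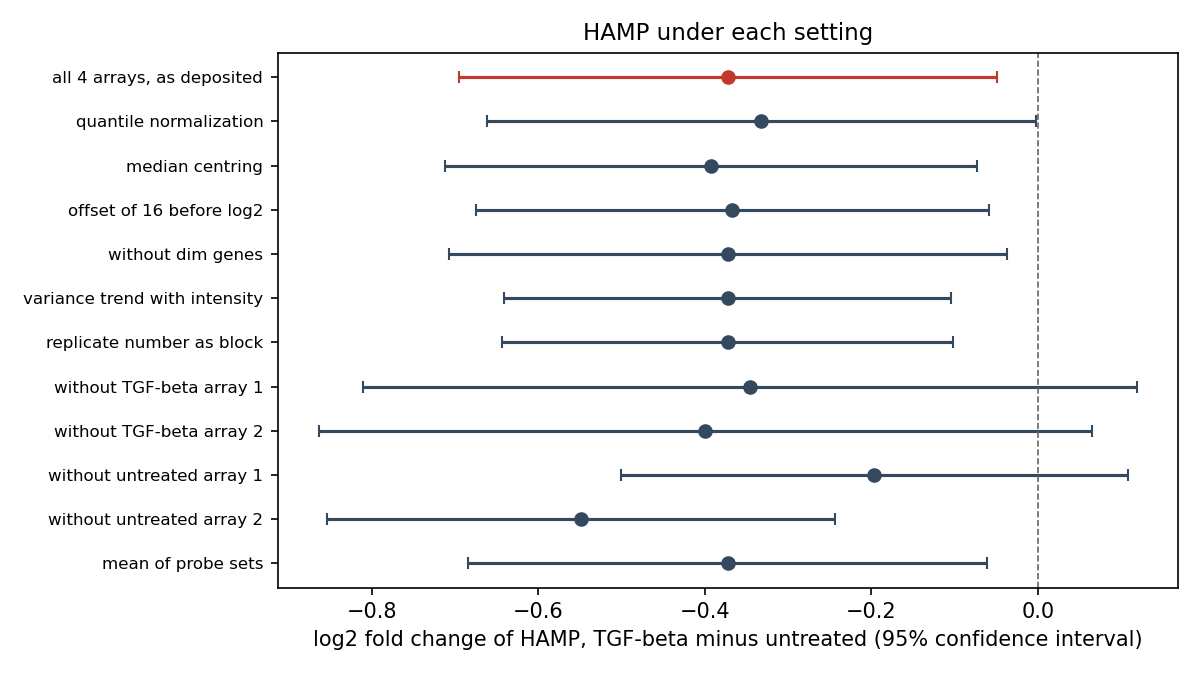
Log2 fold change of HAMP, TGF-beta minus untreated, with its 95% confidence interval from limma under each setting, the value from all 4 arrays in red. The value is below 0 in every setting drawn, and it ranges from -0.55 to -0.20 when 1 array is left out, with intervals that reach past 0 in 3 of those 4 fits. The filter on dim genes, the variance trend, the replicate block and the mean of probe sets repeat the main value. Both TGF-beta arrays lie below both untreated arrays, so leaving out 1 array could not change the sign.

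Ceruloplasmin, the copper ferroxidase that loads iron onto transferrin, was somewhat brighter after TGF-beta without passing the test. CP had intensities of 195 and 202 in TGF-beta cells and 175 and 161 in untreated cells, and the groups did not overlap. Its log2 fold change was 0.24 ± 0.11 (SE, n = 2 per group, adjusted p = 0.300 in limma), with an interval of 0.992 to 1.41 times the untreated intensity. The other CP probe set was dim, at 25.2 and 26.6 after TGF-beta and 26.1 and 27.9 in untreated cells. It gave a log2 fold change of -0.06 ± 0.11 (SE), opposite in sign to the bright one. For scale, the median probe set of an array had an intensity of 50.1 to 51.0 and the lower quartile stood at 28.8 to 29.2.

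Transferrin itself was bright in both groups. The brightest TF probe set had intensities of 9492 and 7193 in TGF-beta cells and 7877 and 8800 in untreated cells, so the TGF-beta arrays lay outside the untreated ones on either side. The log2 fold change was -0.01 ± 0.15 (SE, n = 2 per group, adjusted p = 0.983 in limma), with an interval of 0.776 to 1.27 times the untreated intensity. A second bright probe set had 7472 and 6371 in TGF-beta cells and 6957 and 7599 in untreated cells, with a log2 fold change of -0.08 ± 0.12 (SE). In both of these probe sets TGF-beta array 1 was above TGF-beta array 2, and untreated array 2 was above untreated array 1. The remaining pair of TF probe sets was far less bright. In one of them, above the median of every array, the intensities were 53.1 and 64.0 after TGF-beta and 82.8 and 64.1 in untreated cells, a log2 fold change of -0.32 ± 0.16 (SE) with an adjusted p of 0.370 in limma over probe sets. The other was below the lower quartile of every array, at 25.3 and 26.3 after TGF-beta and 26.5 and 28.8 in untreated cells, with a log2 fold change of -0.10 ± 0.11 (SE). The 3 brighter probe sets had values from -0.32 to -0.01. TF's value took the opposite sign, at 0.19, without TGF-beta array 2.

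Transferrin receptor 1, the main route of iron into dividing cells, was also bright in both groups. TFRC had intensities of 8665 and 8430 in TGF-beta cells and 8164 and 8628 in untreated cells, which overlap. The log2 fold change of 0.03 ± 0.11 (SE, n = 2 per group, adjusted p = 0.933 in limma) had an interval of 0.859 to 1.21 times the untreated intensity. The other TFRC probe set gave 5635 and 6272 after TGF-beta and 6370 and 6396 in untreated cells. There both TGF-beta arrays were lower, with a log2 fold change of -0.10 ± 0.11 (SE) and an adjusted p of 0.720 over probe sets. The sign of the TFRC value differs between its probe sets.

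The light chain of ferritin, which builds the iron core of the storage shell, was measured by 2 probe sets near the top of the arrays' range. The brighter had intensities of 24494 and 26291 in TGF-beta cells and 24863 and 25319 in untreated cells. The other had 17117 and 16092 in TGF-beta cells and 16048 and 16765 in untreated cells. In both, the untreated values lay within or beside the range of the TGF-beta values, and the log2 fold change was 0.02 ± 0.11 (SE, n = 2 per group). The interval of the brighter was 0.851 to 1.2 times the untreated intensity (adjusted p = 0.964 in limma). The brightest probe sets on the arrays had intensities of 37821 to 39036, and differences can be compressed near such values. Both FTL probe sets carry the suffix _x_at, which marks probes that can match related transcripts. No probe set used here names the heavy chain, FTH1, which oxidises iron as it enters the shell.

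The sensors of plasma transferrin, TFR2 and HFE, were dim. TFR2, a receptor of the hepatocyte surface, had 3 probe sets with intensities of 29.5 to 44.4 in TGF-beta cells and 26.7 to 39.4 in untreated cells. The brightest of them had 43.2 and 44.4 after TGF-beta and 39.4 and 39.3 in untreated cells, a log2 fold change of 0.15 ± 0.10 (SE, adjusted p = 0.495 in limma). The groups did not overlap in any of the 3, where 47.1% of all probe sets separated, and the sign was not shared. The other values were 0.27 ± 0.12 and -0.24 ± 0.13 (SE), with adjusted p of 0.345 and 0.425 over probe sets. At intensities this close to the lower quartile, and with no detection call among the values, the data do not show whether TFR2 RNA was present.

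HFE, a relative of MHC class I molecules that is mutated in hereditary haemochromatosis, had 13 probe sets, 11 of them with the suffix _x_at. Their intensities ran from 30.7 to 102 in TGF-beta cells and from 26.2 to 106 in untreated cells. Of the 13, 8 were below the arrays' median on all 4 arrays and 3 were above it on all 4. The brightest had 99.5 and 102 after TGF-beta and 80.6 and 106 in untreated cells, which overlap, and gave a log2 fold change of 0.12 ± 0.14 (SE, n = 2 per group, adjusted p = 0.721 in limma). Without untreated array 1 it was -0.07, and without untreated array 2 it was 0.32. Over the 13 probe sets the log2 fold changes ran from -0.26 to 0.30 with a median of 0.12, and 9 were positive. The probe set at the upper end had 35.1 and 34.3 after TGF-beta and 30.2 and 26.2 in untreated cells. Its unadjusted p was 0.0318 and its adjusted p over probe sets was 0.253. These probe sets share sequence of 1 gene, so they do not count as 13 separate measurements.

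**Figure D3:**
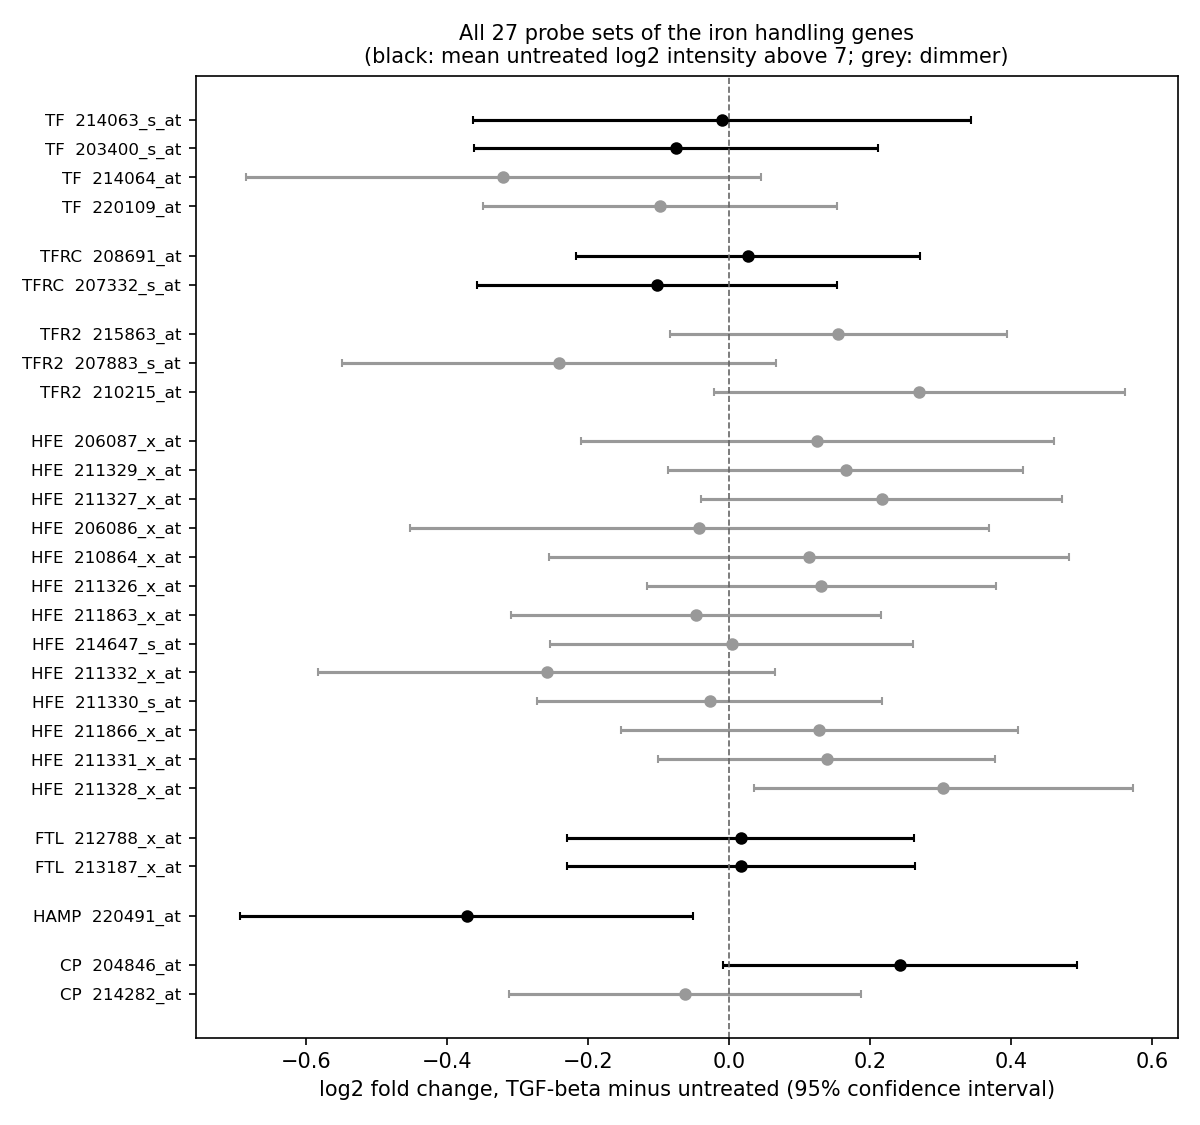
Log2 fold change, TGF-beta minus untreated, of all 27 probe sets of the iron handling genes, with 95% confidence intervals from limma over all probe sets; black marks brighter and grey marks dimmer probe sets. The interval leaves out 0 for HAMP, at -0.37, and for 1 probe set of HFE, at 0.30, and probe sets of TFRC, TFR2, HFE and CP disagree in sign.

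Other genes of iron and haem handling were set beside these from 7 lists with 89 genes in all, of which 70 were measured. In limma over all genes 1 of the 70 rose, 0 fell and 69 did not pass, against 0.658% of all genes that rose and 1.22% called in either direction. With unadjusted p under 0.05, 10 were higher (9.35% of all genes) and 3 were lower (8.6% of all genes), together 18.6% of the 70 beside 18.0% of all genes. The median log2 fold change was 0.05. The gene that rose was GDF15, a stress-induced member of the TGF-beta family that has been reported to lower hepcidin. GDF15 had intensities of 661 and 667 in TGF-beta cells and 446 and 429 in untreated cells, 1.52-fold higher, with an adjusted p of 0.047 in limma. The call was lost under quantile normalization (adjusted p = 0.0531), without dim genes (0.0538), with the mean of its 2 probe sets (0.110), and without TGF-beta array 1 (0.310) or array 2 (0.230). The same probe set was not called in limma over all probe sets (adjusted p = 0.0533). It can match related transcripts, and the other GDF15 probe set, which was dim, gave a log2 fold change of 0.09 ± 0.10 (SE).

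In the hepcidin control list, which holds BMP ligands, receptors, SMADs and regulators, GDF15 was the 1 call of 22 measured members. Of all genes, 1.22% were called. At an unadjusted p under 0.05 in limma, 4 were higher (9.35% of all genes) and 0 were lower (8.6%). Together these were 18.2% of the 22, beside 18.0% of all genes. The median was 0.11, beside -0.01 over all genes. ACVR1, an activin and BMP receptor used in hepcidin control, had intensities of 309 and 320 in TGF-beta cells and 204 and 219 in untreated cells. This gave a log2 fold change of 0.57 ± 0.11 (SE, adjusted p = 0.0549 in limma). FURIN, a protease that trims prohepcidin and the BMP co-receptor hemojuvelin, stood at 0.44 (adjusted p = 0.0941). FGL1, a hepatokine reported to oppose BMP signalling, stood at 0.37 (adjusted p = 0.252) and ran from 0.20 to 0.54 with 1 array left out. ID1, SMAD6 and SMAD7, which BMP signalling induces together with HAMP, had log2 fold changes of 0.15 ± 0.14, 0.25 ± 0.15 and -0.03 ± 0.13 (SE), and none passed even at an unadjusted p under 0.05. Without untreated array 1 the values of ID1 and SMAD6 were 0.0161 and 0.0607, and 1 of the 3 dimmer SMAD6 probe sets was negative, at -0.17. The difference between these genes and HAMP was not tested. ACVR1, FURIN, FGL1 and these 3 genes were chosen after their values were seen.

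Among 12 measured genes of membrane iron transport and reduction, 0 passed limma at an adjusted p under 0.05, against 1.22% of all genes. With unadjusted p under that level 3 were higher, against 9.35% of all genes, and 0 were lower. MCOLN1, a lysosomal channel that lets iron out, had the smallest p, with intensities of 79.4 and 75.1 in TGF-beta cells and 55.4 and 42.8 in untreated cells. Every TGF-beta value was above the untreated ones, with a log2 fold change of 0.67 ± 0.14 (SE, adjusted p = 0.0687 in limma). SLC39A14, which carries iron that is not bound to transferrin into hepatocytes, had 3013 and 3240 in TGF-beta cells and 1656 and 2580 in untreated cells. Its log2 fold change of 0.60 ± 0.20 (SE, adjusted p = 0.175) became 0.28 without untreated array 1 and 0.92 without untreated array 2 (adjusted p = 0.0108). STEAP3, the endosomal reductase that acts on iron released from transferrin, stood at 0.30 (adjusted p = 0.193). SLC39A14 and STEAP3 were chosen after their values were seen. SLC11A2, the importer that moves iron out of endosomes, had 500 and 476 in TGF-beta cells and 462 and 552 in untreated cells, with a log2 fold change of -0.05 ± 0.12 (SE). Its 3 other probe sets gave -0.36, -0.21 and 0.0078. No probe set used here names SLC40A1, the exporter that hepcidin closes.

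Of genes for haem breakdown and scavenging, 0 of 8 measured passed in limma, against 1.22% of all genes. At an unadjusted p under 0.05, 2 passed, both on the higher side, against 9.35% of all genes. HPX, hemopexin, the plasma protein that binds free haem, had intensities of 1353 and 1639 in TGF-beta cells and 904 and 1000 in untreated cells. Its log2 fold change was 0.65 ± 0.13 (SE, n = 2 per group, adjusted p = 0.0595 in limma). The second HPX probe set gave 0.68 ± 0.11 (SE) and was called in the fit over all probe sets (adjusted p = 0.0455), so HPX stands on either side of the threshold by probe set. HP, haptoglobin, which binds free haemoglobin, stood at 0.31 (adjusted p = 0.261) and was chosen after its value was seen. The value was 0.17 without untreated array 2 and 0.13 with the mean of the 3 HP probe sets, of which another gave -0.0205. Of 6 measured genes of haem synthesis 0 passed, 1 was higher at an unadjusted p under 0.05 (9.35% of all genes), and the median was 0.16. PPOX, protoporphyrinogen oxidase, had the smallest p at 0.33 ± 0.13 (SE, adjusted p = 0.235).

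Genes that use or sense iron inside the cell had 0 calls, where 1.22% of all genes were called. In iron-sulphur cluster assembly 0 of 11 measured passed, and 1 was lower at an unadjusted p under 0.05 (8.6% of all genes). Of the 11 values, 8 were negative, beside 6257 of all 12165 genes. The median was -0.05, beside -0.01 over all genes. NFS1, the cysteine desulfurase that supplies sulphur, had intensities of 237 and 197 in TGF-beta cells and 295 and 304 in untreated cells. The groups did not overlap, with a log2 fold change of -0.47 ± 0.12 (SE, adjusted p = 0.108 in limma). Among 7 measured iron chaperones and genes of ferritin turnover, 0 passed and 2 were lower at an unadjusted p under 0.05, against 8.6% of all genes. FBXL5, the iron-sensing part of the ubiquitin ligase that marks IREB2 for breakdown, had 868 and 911 in TGF-beta cells and 1297 and 1152 in untreated cells. Its log2 fold change was -0.46 ± 0.11 (SE, adjusted p = 0.0934), and its other probe set gave -0.52 ± 0.11 (SE, adjusted p = 0.0727 over probe sets). The other gene on the lower side was LCN2, a siderophore-binding protein, which was dim at 29.3 and 30.7 after TGF-beta and 36.2 and 38.7 in untreated cells. Of 5 other measured transcripts with a known or proposed iron-responsive element, 0 passed at either threshold. Of all genes, 18.0% passed at an unadjusted p under 0.05. EPAS1, the hypoxia factor HIF-2 alpha, had the smallest p at 0.19 ± 0.17 (SE, adjusted p = 0.616).

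**Figure D4:**
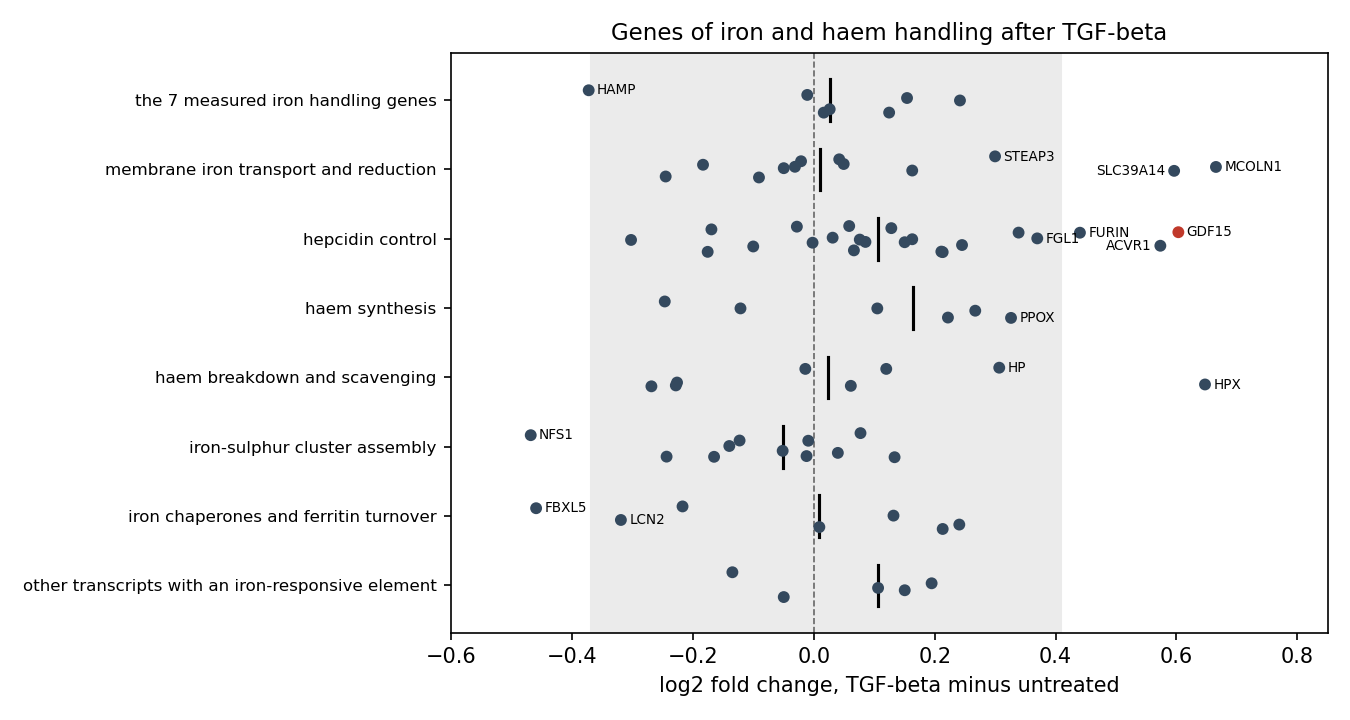
Log2 fold change, TGF-beta minus untreated, of each measured gene of the iron and haem lists, with the list median as a black bar, called genes in red and the range from the 5th to the 95th percentile of all genes, -0.37 to 0.41, shaded. GDF15 is the only red point, and the names mark genes with an unadjusted p under 0.05.

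The cells' identity was checked against markers. Hepatocyte markers were bright, with ALB (albumin) at 35745 and 35526 in TGF-beta cells and 33581 and 34262 in untreated cells. That ALB probe set lies near the brightest on the arrays, where differences can be compressed. The other ALB probe sets gave log2 fold changes of -0.34 and 0.43, with adjusted p of 0.305 and 0.218 in limma over probe sets. The summed hepatocyte markers, which include the member TF, were 113246 and 112680 in TGF-beta cells and 105750 and 108264 in untreated cells. Of 11 measured, APOA1 (an HDL protein) rose 1.67-fold and TTR (transthyretin) fell by 0.63 on the log2 scale in limma (adjusted p = 0.0378 and 0.047). Both calls were lost under quantile normalization (0.053 for APOA1 and 0.063 for TTR) and without TGF-beta array 1 (0.287 and 0.281) or array 2 (0.197 and 0.230). The TTR call was also lost without dim genes (0.0537) and without untreated array 1 (0.0528). In limma over all probe sets TTR was not called (adjusted p = 0.0533), while APOA1 was (0.0454). The summed macrophage markers were 446 and 460 in TGF-beta cells and 382 and 394 in untreated cells. CD14, a lipopolysaccharide co-receptor that hepatocytes also make, rose 2.0-fold (adjusted p = 0.0167 in limma). The call was lost without TGF-beta array 1 (log2 fold change 1.05) or array 2 (0.95). CD14 was the 1 call of 10, where 1.22% of all genes were called, and was chosen after its value was seen. The other 9 summed to 299 and 304 after TGF-beta and 306 and 318 in untreated cells. Of 7 erythroid, 10 endothelial and 10 stellate or fibroblast markers measured, 0 passed limma, while 1, 3 and 2 of them were lower and 0 higher with unadjusted p under 0.05, a threshold that 8.6% of all genes passed on the lower side. In TGF-beta cells the erythroid sums were 218 and 217.5, the endothelial 366 and 354 and the stellate 7171 and 7709. In untreated cells they were 229 and 229.7, 405 and 388, and 7708 and 7134. The erythroid markers ran from 21.1 to 48.3, below the median of every array, 50.1 to 51.0. Most endothelial markers, and most macrophage markers besides CD14, were below that median too. At such intensities, with no detection call among the values, the data do not show whether these RNAs were present. LUM (lumican) made up most of the stellate sums and was singled out after its value was seen. The other 9 stellate markers summed to 394 and 417 in TGF-beta cells and 524 and 441 in untreated cells, lower on both TGF-beta arrays. Apart from RGS5, these 9 had intensities from 29.6 to 60.6. The part of these differences in the values above was not tested.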

How the data were processed

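RNA of 4 cell line samples was hybridised to Affymetrix arrays. The authors deposited linear intensities for every probe set. Their processing notes name affy, while the sources used here do not state its settings. Quartiles were nearly equal between arrays, so no further scaling was applied. Values were converted to log2 with no offset. The array's annotation, possibly out of date, names 1 gene for 19724 of 22215 probe sets, several for 568 and none for 1923, and 19707 of the first kind got a current symbol by Entrez number from RefSeq (GRCh38.p14). Probe sets with 1 gene entered the gene comparison, with the brightest for each of 12165 genes. TGF-beta was compared with untreated cells by limma 3.58.1 in R 4.3.3 (lmFit, eBayes, Benjamini-Hochberg, threshold 0.05), over all genes and, for single probe sets, over all probe sets. Moderation gave 7.41 degrees of freedom per gene. The procedure was run on data simulated from its own fitted variances with independent noise, which cannot test effects shared between arrays. Figures used matplotlib 3.10.9 in Python 3.11.15. The number of arrays limits the precision.

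The members and lists were chosen with earlier results of these data known. Named genes are all members with every probe set, called members of the other iron lists, the lowest-p gene wherever a list had no call, and SLC11A2 and SLC40A1. ALB, TTR and APOA1 stand for hepatocytes, and all others were chosen after their values were seen. Alternatives were quantile normalization, median centring, an offset of 16, a filter on dim genes below the lower quartile, a variance trend, the mean of probe sets, a replicate block and leaving out each array. Sequences are from RefSeq.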

Additional observations from a re-analysis of the deposited data

How the results depend on the processing

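None of the 7 measured members was called by limma under any of the alternatives run. None of their probe sets was called either, with 25 of the 27 left by the filter on dim ones and the mean of probe sets run for genes alone. In all, 69 of 77 log2 fold changes of members under the alternatives kept their sign. The other 8 were near 0 or rested on 1 array, and the cause was not tested. The filter on dim genes, the variance trend and the replicate block repeat the main log2 fold change, so there the sign could not change. The same holds for HAMP with the mean of probe sets, as it has 1 probe set. For HAMP, CP and TFR2 the arrays of the groups did not overlap. Leaving out 1 array or adding the offset therefore could not change the sign of these genes either. The count of 69 includes all these fits, so it overstates how far the signs were tested. TF became 0.0031 under quantile normalization, TFRC -0.0382 with the mean of probe sets and FTL -0.0033 under median centring. Leaving out 1 array gave -0.21 to 0.19 for TF, -0.0137 to 0.0661 for TFRC, -0.0703 to 0.32 for HFE and -0.0347 to 0.0674 for FTL. It also gave -0.18 to 0.0785 for SLC11A2, -0.0294 to 0.42 for EPAS1 and -0.17 to 0.12 for SMAD7.

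All genes called numbered 149, against 63 under quantile normalization, 616 with a variance trend and 0 to 523 with 1 array left out (0 without either TGF-beta array, with 1326 and 1563 at an unadjusted p under 0.05 in limma, and 345 and 523 without untreated array 1 and 2). The 1 called gene of the wider iron lists became 0 under quantile normalization, 0 without dim genes, 2 with an offset of 16, 2 with the mean of probe sets, 7 with a variance trend and 0 to 5 with 1 array left out. The alternatives that leave out an array assume that the lone array varies like the other group. Deviations of same-numbered arrays correlated at 0.0097 over genes, so the replicate numbers were not taken as pairs. With the replicate number as a block, 1229 genes, 8 genes of the wider lists (6 higher and 2 lower) and 0 members were called. The block leaves few degrees of freedom, and limma then gave the members and named iron genes nearly the same standard error, 0.135 to 0.138. Whether this bears on the larger count was not tested. Signal over background limits TFR2, HFE, the second probe set of CP and the dimmest of TF, which were dim.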
